A study of Mus musculus with 2 samples.

Results

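Lubricin (Prg4), the hyaluronan synthases Has1 and Has2, the hyaluronan receptor Cd44, the hyaluronidases Hyal1 and Hyal2, and Cemip were followed through the cells of the mouse temporomandibular joint (TMJ). These 7 genes were chosen by name, as genes of joint lubrication, among 32285 genes counted. The samples were 2 droplet single-cell RNA libraries of TMJs from wild-type C57BL/6 mice, labelled as 8 to 10 weeks old, 1 library injected with PBS and 1 with complete Freund's adjuvant (CFA), an oil emulsion with killed mycobacteria that inflames the joint. By the study's methods the mice were female, both joints were injected, tissue was taken 3 weeks later and pooled within a group, and cells carrying the leukocyte antigen CD45 were depleted with magnetic nanobeads before loading. The pool held condyle, disc, temporal bone, muscle and ligament, so the libraries mixed joint, marrow and muscle cells. With 1 library a group there is no replicate check and no test of the condition. Every 95% interval given here covers counting error only, and UMIs of the same cell are not independent of each other.

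Lubricin is a long, heavily glycosylated protein that synovial lining cells and surface chondrocytes secrete, and it coats cartilage so that opposing surfaces slide. Hyaluronan is a long sugar polymer that gives synovial fluid its viscosity. Has1 and Has2 extrude it through the cell membrane, Cd44 binds it at the cell surface, Hyal2 and Hyal1 cut it outside the cell and in the lysosome, and Cemip is needed for another route of hyaluronan breakdown.

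After cells with under 500 genes, over 10% mitochondrial UMIs or over 1% hemoglobin UMIs were left out, 2667 PBS cells and 4014 CFA cells remained, with 27201994 and 44432717 UMIs (unique molecular identifiers, each read as 1 captured transcript) and medians of 7022 and 6509.5 UMIs per cell. The hemoglobin limit alone took out 3178 PBS and 339 CFA barcodes, and the libraries shared 2 barcodes among the cells kept. The 38 clusters, made without the 7 genes, gave 18 named classes from canonical markers, and each name means only that a cluster carries those markers. Fibroblast-like cells numbered 470 (PBS) and 369 (CFA), in 3 clusters. Cluster 3 (215 and 155 cells) carried the sublining markers Col15a1, Smoc2 and Cxcl14. Cluster 7 (135 and 157 cells) carried the adventitial markers Pi16, Dpp4, Sema3c, Cd248 and Ackr3. Cluster 16 (120 and 57 cells) carried 6 of the 7 fibroblast markers and matched no listed subtype. It was led within fibroblasts by Comp, Fmod, Ecrg4, Egfl6 and Scx. Fmod and Scx are also on the tenocyte list and Comp is on the chondrocyte list. By cells, cluster 3 was the largest of the 3 in PBS, while clusters 3 and 7 were about equal in CFA. By UMIs, which weight the levels, clusters 3 and 7 held 1910757 and 1839417 in PBS, and 1470255 and 3063626 in CFA. Prg4, Has1, Has2, Cd44 and Cemip in the class are therefore also given by cluster.

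A separate cluster of 36 cells carried all 7 lining markers on the list (Col22a1, Gpr1, Clic5, Tspan15, Htra4, Cd55 and Hbegf), a list without Prg4. It is called lining fibroblast-like and counted apart from the fibroblast-like class. It held 30 PBS cells, 1.12% (0.76% to 1.6%) of that library, and 6 CFA cells, 0.149% (0.055% to 0.325%). Htra4 stood at 633 CPM (UMIs of a gene per 1000000 UMIs of the same cells) in the PBS and 540 in the CFA cells of this cluster, against 5.65 and 18.9 in fibroblast-like cells. General fibroblast markers were present: the 7 listed genes together came to 5533 CPM in the PBS lining-like cells, and 1 of the 7 had no UMI in the CFA cells. The matching sum in fibroblast-like cells is not given, so how far the 2 kinds of cell differ in these markers is not shown. The name was given to a whole cluster after the first clustering was seen, because no sub-cluster of the fibroblast-like cells carried more than 1 lining marker.

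Prg4 (chromosome 1, 150449412 to 150466165, minus strand, GRCm38; its locus meets Tpr on the other strand) was concentrated in the lining fibroblast-like cells. These cells held 15922 of the 23801 Prg4 UMIs of the PBS library (66.9%) and 4628 of the 12910 of the CFA library (35.8%). Their level was 29742 CPM (29282 to 30207) in PBS and 34218 (33239 to 35218) in CFA, a CFA to PBS ratio of 1.15 (1.11 to 1.19). Every lining-like cell had Prg4 UMIs in both libraries, from 18 to 2051 a cell with a median of 221.5 in PBS and from 9 to 1504 with a median of 712.5 in CFA. The spread between cells was therefore far wider than the difference between libraries, and 3 of the 6 CFA cells held 78.1% of the CFA lining UMIs. The ratio also changed side with the choice of cells: it was 0.80 with no hemoglobin limit, where 139 PBS and 23 CFA cells were lining-like, and 0.95 with 50 principal components.

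Over all cells Prg4 stood at 875 CPM (864 to 886) in PBS and 291 (286 to 296) in CFA, a ratio of 0.33 (0.33 to 0.34). Without the lining-like cells the levels were 295 and 187, a ratio of 0.63 (0.61 to 0.65). The lower level over all cells thus went with a lower share of lining-like cells, whose own level was not lower under the main filters. With no hemoglobin limit the share of lining-like cells was also lower in CFA, 2.38% in PBS and 0.528% in CFA. Levels over all cells, with or without the lining-like ones, are also divided by the UMIs of myeloid cells (neutrophil-like, monocyte-like, macrophage-like and osteoclast-like). These held 1725234 of 27201994 UMIs in PBS and 18644005 of 44432717 in CFA, with 289 and 589 Prg4 UMIs. Outside the lining-like cells, 3 barcodes held 28.9% of Prg4 UMIs in PBS and 13.7% in CFA. The ratio of 0.63 does not by itself show a lower level within the remaining classes. What myeloid cells, these barcodes and the dissociation contributed was not tested.

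Among classes with at least 50 cells in each library, the fibroblast-like cells came first in both. The order of the tenocyte-like, chondrocyte-like and mural-like cells behind them rested in part on single barcodes, as given with their values. Fibroblast-like cells had 4242 Prg4 UMIs with PBS (799 CPM, 775 to 823) and 6898 with CFA (1255, 1226 to 1285), a ratio of 1.57 (1.51 to 1.63). Cells with 50 or more Prg4 UMIs, 26 in PBS and 38 in CFA, held 2601 and 4933 of these UMIs, and without them the levels were 332 and 427. The class's part of the library's Prg4 was 17.8% in PBS and 53.4% in CFA. This direction depended on the lining-like cells standing apart: counted together, both kinds of fibroblast had 3449 and 2047 CPM, a ratio of 0.59 (0.58 to 0.61). In the fibroblast-like cells themselves 4 of the 7 lining markers were higher with CFA, and the 7 together came to 221 CPM in PBS and 300.01 in CFA, most of it Cd55, with none at 0. Htra4 had a UMI in 23 of 470 and 49 of 369 cells. Of the markers lower with CFA, Clic5 had a UMI in 22 and 7 cells and Hbegf in 59 and 43. Their part in the Prg4 value was not tested.

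The fibroblast clusters did not move alike. The sublining-like cluster 3 had 241 CPM in PBS and 256 in CFA, a ratio of 1.06 (0.92 to 1.22) whose interval includes 1, and 3 barcodes held 53.1% and 43.1% of its Prg4 UMIs. In the adventitial-like cluster 7 the levels were 702 and 1073, a ratio of 1.53 (1.43 to 1.63). Cluster 16 had the highest level of the 3 in both libraries, 1594 and 3361, a ratio of 2.11 (2 to 2.22), and its median cell went from 196 CPM in PBS to 2437 in CFA. The 3 clusters thus kept the same order of Prg4 in both libraries, with cluster 16 above cluster 7 and cluster 7 above cluster 3. The size of the differences depended on how the cells were divided: when the fibroblast-like cells were clustered alone, the sub-cluster with adventitial markers had 577 and 1261, the one led by Comp and Fmod 1710 and 2855, and the one with sublining markers 275 and 209, which is lower in CFA.

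**Figure D1:**
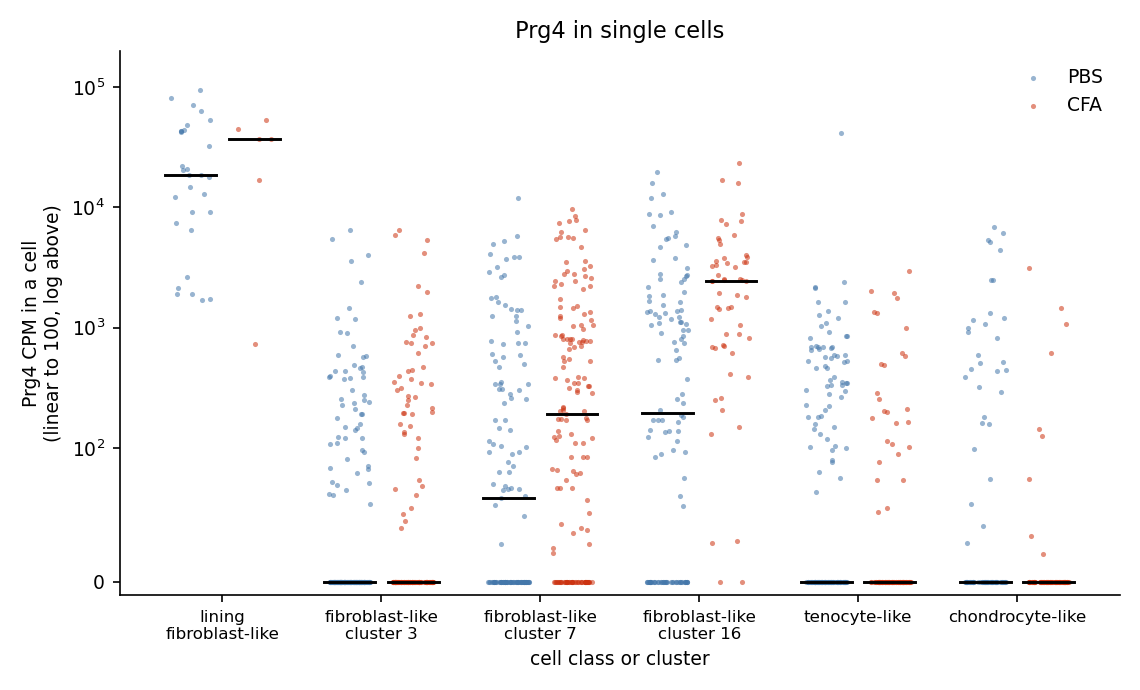
Prg4 CPM in each cell of the lining-like cluster, the 3 fibroblast-like clusters and the tenocyte-like and chondrocyte-like cells, PBS and CFA library side by side, on an axis that is linear to 100 and logarithmic above it. Each dot is a cell and each black line the median cell, and the median of cluster 16 is 196 in PBS and 2437 in CFA.

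After every cell was thinned to 1000 UMIs, 20.1% (16.6% to 24.1%) of 467 PBS and 33.3% (28.5% to 38.5%) of 360 CFA fibroblast-like cells had a Prg4 UMI. Without thinning the shares were 44.5% and 59.3%, at medians of 11298.5 and 12887 UMIs a cell. B cell-like cells, which should lack lubricin, gave 2.5% and 0% after thinning (medians of 3734 and 4036 UMIs), so shares of that size were not read as expression, and the part of free RNA in them was not tested. Schwann-like cells, at 2.34% and 1.1%, were in the same range. As a level, Prg4 stood at 25.8 CPM in PBS and 5.03 in CFA B cell-like cells, and at 24.9 and 8.81 in Schwann-like cells.

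Tenocyte-like cells had 744 Prg4 CPM (708 to 782) in PBS and 221 (197 to 248) in CFA, a ratio of 0.30. In the PBS library 1 barcode held 1103 of these 1550 UMIs, and without the highest barcode of each library the levels were 217 and 166. Chondrocyte-like cells, marked by Col2a1, Acan and Comp, had 399 (370 to 430) and 43.6 (34.7 to 54.0), a ratio of 0.11 (0.09 to 0.14). Here 4 PBS barcodes, each with 50 or more Prg4 UMIs, held 530 of 700 UMIs. Without them the PBS level was 102, and no CFA cell had as many, so the CFA level stayed at 43.6. Without the highest barcode of each library the level was 278 against 19.9, and 35.6% of PBS cells against 10.6% of CFA cells had a UMI. Lining markers moved the same way in these cells: the 7 together came to 39.9 CPM in PBS and 13.1 in CFA chondrocyte-like cells, with 1 and 3 of them at 0. Their part in the result was not tested.

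A few barcodes also decided the value of other classes. Of 747 Prg4 UMIs in the 35 PBS osteoblast or osteocyte-like cells, 743 came from 1 barcode, and the 28 CFA cells had none. Of 264 UMIs in the 37 PBS monocyte-like cells, 262 came from 1 barcode, which also held 81 Dcn and 60 Col3a1 UMIs and 5 of the 7 lining markers. Of 103 UMIs in the CFA mural-like cells, 96 came from 1 barcode, and without it the level was 3.19 CPM, below the 15.5 of PBS. In the osteoclast-like cells, found almost only in the CFA library (270 of 271 cells), 3 barcodes held 323 of 556 Prg4 UMIs with 0 or 1 UMI of Dcn and of Col3a1, and without them the level was 25.7 rather than 60.3 CPM.

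**Figure D2:**
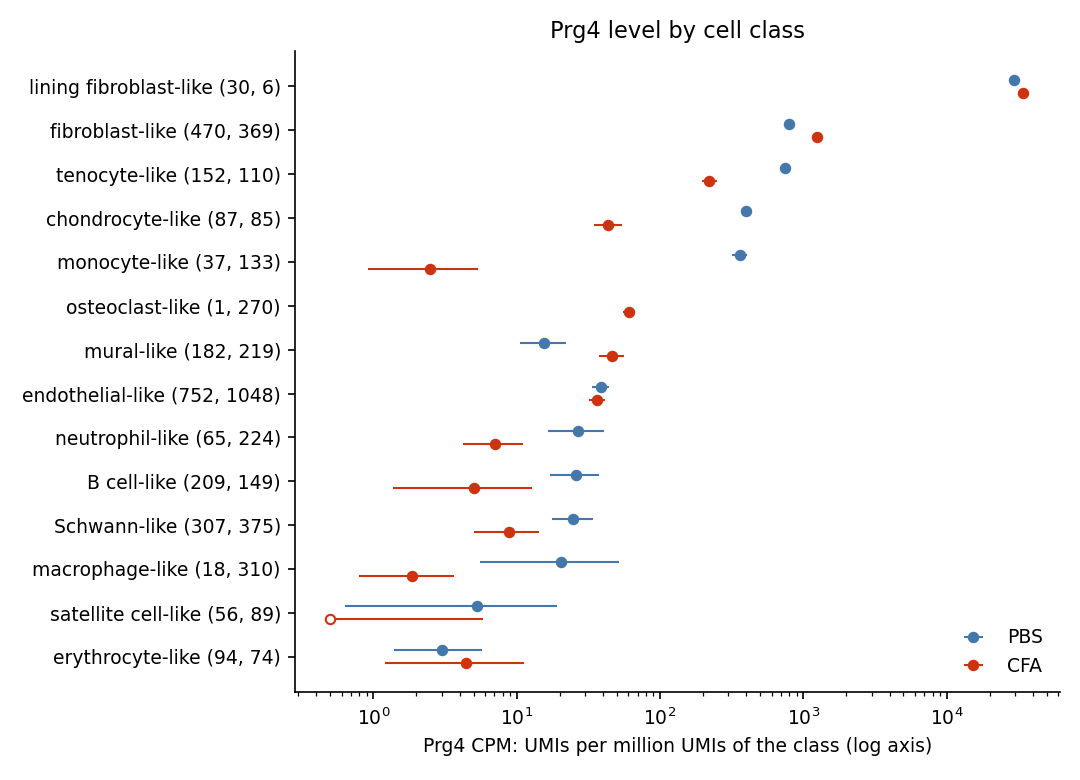
Prg4 level by class in CPM on a log axis, PBS and CFA library, with 95% Poisson intervals and cell numbers (PBS, CFA) in the labels. Lining fibroblast-like cells, at 29742 and 34218, stand far above every other class; an open circle at 0.5 marks a class with no UMI, and groups under 5 cells are not drawn.

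Has1 (chromosome 17, 17843323 to 17855205, minus strand, GRCm38) was a fibroblast gene in this joint. Fibroblast-like cells held 73.6% of its 2110 PBS UMIs and 92.1% of its 2860 CFA UMIs. Their level was 292 CPM (278 to 307) in PBS and 479 (461 to 498) in CFA, a ratio of 1.64 (1.54 to 1.75). By cluster the ratio was 2.48 (2.13 to 2.90) in cluster 3, from 136 to 338, 1.32 (1.22 to 1.43) in cluster 7, from 467 to 616, and 0.93 (0.80 to 1.09) in cluster 16, from 278 to 260. In cluster 3 the highest barcode held 39 of 260 PBS and 51 of 497 CFA Has1 UMIs, and without it the levels were 117 and 307.

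Lining fibroblast-like cells had the highest Has1 level of any class, 796 CPM (722 to 875) in PBS and 813 (668 to 980) in CFA, with a ratio of 1.02 (0.82 to 1.26). Perineurial-like cells, the sheath cells of nerve bundles, came next to the fibroblasts with 187 and 148, from 15 UMIs, 12 of them in 1 barcode, and 6 UMIs, with intervals that overlap each other (105 to 309 and 54.2 to 322) and, in PBS, that of the fibroblast-like cells. Over all cells Has1 was 77.6 and 64.4, a ratio of 0.83 (0.78 to 0.88), and 0.98 (0.92 to 1.05) without the lining-like cells. B cell-like cells had no Has1 UMI in 209 PBS and 149 CFA cells, which allows a share of cells with a UMI of up to 1.44% and 2.01%. Thinned to equal depth, 16.5% (13.2% to 20.2%) of PBS and 26.9% (22.4% to 31.8%) of CFA fibroblast-like cells had a Has1 UMI.

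Among the thinned CFA fibroblast-like cells, Has1 was found in 41 of the 120 cells with Prg4 (34.2%) and in 56 of the 240 without it (23.3%). In the PBS library the shares were 14 of 94 (14.9%) and 63 of 373 (16.9%). These shares describe cells of 1 library each and of 3 clusters with different levels of both genes.

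The stretch around the Has1 start site, 250 bases before to 50 after it, is shown because Has1 was the synthase whose level differed in fibroblast-like cells. It lies at chr17:17855139-17855438 on the minus strand and comes from the RefSeq promoter table for GRCm38.p6, which matched 5 of the 7 genes (Has1, Cd44, Hyal1, Hyal2 and Cemip). The capitals mark TGACGTCA, the full palindrome of the cAMP response element, whose first base lies 83 bases before the start. These letters stood in 588 of 32851 promoters (1.79%) on either strand and in 1 of the 5 genes in the table. The letters TGANTCA, an AP-1 site, were in 7.81% of promoters and in none of the 5.
Has1: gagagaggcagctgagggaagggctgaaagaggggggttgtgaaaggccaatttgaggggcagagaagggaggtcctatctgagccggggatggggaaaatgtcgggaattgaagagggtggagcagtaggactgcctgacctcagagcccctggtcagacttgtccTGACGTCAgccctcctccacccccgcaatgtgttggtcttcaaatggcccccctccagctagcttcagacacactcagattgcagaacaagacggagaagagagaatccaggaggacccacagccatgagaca

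Has2 (chromosome 15, 56665627 to 56694539, minus strand, GRCm38; Has2os lies on the other strand) was the second fibroblast synthase. Fibroblast-like cells had 429 and 425 Has2 UMIs, 80.8 CPM (73.3 to 88.8) in PBS and 77.3 (70.1 to 85.0) in CFA, a ratio of 0.96 (0.84 to 1.10). In clusters 3 and 7 the levels were 52.9 and 55.8, and 112 and 105. Cluster 16 differed from both: its level was 78.1 in PBS and 20.8 in CFA, a ratio of 0.27 (0.16 to 0.43), from 122 UMIs in 42 of 120 cells and 20 UMIs in 13 of 57 cells. Prg4 was higher with CFA in clusters 7 and 16, and of these only cluster 16 had a Has2 ratio whose interval lies below 1 (0.94, 0.79 to 1.13, in cluster 7).

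Mural-like cells, the pericytes and smooth muscle of vessels, had 24.0 Has2 CPM (17.7 to 31.9) in PBS and 3.58 (1.54 to 7.05) in CFA, a ratio of 0.15 (0.06 to 0.32) from 48 and 8 UMIs. Most of these lay in mural cluster 20, led by Actg2 and Rgs5, at 55.4 and 12.5. Chondrocyte-like cells had 16.5 and 14.2, a ratio of 0.86 (0.49 to 1.5). Over all cells the level was 20.9 and 11.6, a ratio of 0.56 (0.49 to 0.63), while the level within fibroblast-like cells, which held 429 of the 569 PBS and 425 of the 516 CFA UMIs, differed by less than counting error. Fibroblast-like cells made up 17.6% of PBS cells and 9.19% of CFA cells. This gap depended on the hemoglobin limit. Without it they were 423 of 5845 PBS and 313 of 4353 CFA cells, about equal shares, and Has2 over all cells had a ratio of 0.69.

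Cd44 (chromosome 2, 102811141 to 102901665, minus strand, GRCm38), the surface receptor for hyaluronan, was the only gene of the 7 past 2-fold upwards over all cells. Its level was 208 (203 to 214) in PBS and 665 (658 to 673) in CFA, a ratio of 3.20 (3.11 to 3.29). The cells that held it were not the same in the libraries. Osteoclast-like, macrophage-like and monocyte-like cells held 35.9%, 22.5% and 10.1% of the CFA Cd44 UMIs, against 0.34%, 3.37% and 8.24% of the PBS ones. Fibroblast-like cells held 29.4% in PBS and 10.4% in CFA. Since CD45+ cells were depleted before loading, these shares are not those of the joint.

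Within classes the level was also higher in several of the cell types. Fibroblast-like cells had 314 CPM (299 to 329) in PBS and 560 (541 to 581) in CFA, a ratio of 1.79 (1.68 to 1.90). The ratio was above 1 in each fibroblast cluster, at 1.91 (1.66 to 2.19) in cluster 3, 1.89 (1.73 to 2.08) in cluster 7 and 1.48 (1.33 to 1.65) in cluster 16. The summed level of the 6 macrophage markers in fibroblast-like cells was 4.14 CPM in PBS and 46.9 in CFA, with 1 marker at 0 in PBS, and that of the 6 monocyte markers 28.6 and 499, led by Plac8. Their part in the Cd44 value was not tested. Neutrophil-like cells had 401 (358 to 448) and 750 (717 to 783), a ratio of 1.87 (1.66 to 2.11). Monocyte-like cells, led by the granule genes Prtn3, Ctsg, Mpo and Elane, had 639 (582 to 699) and 1239 (1194 to 1284) from 37 and 133 cells.

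Macrophage-like cells had 970 (837 to 1117) from 18 PBS cells and 1537 (1500 to 1575) from 310 CFA cells, and the CFA osteoclast-like cells 1151 (1129 to 1173). An unnamed cluster led by Il1f9 and Acod1, with 6 PBS and 128 CFA cells, had the highest CFA level of the large clusters at 2215. Lining fibroblast-like cells stood at 1070 (984 to 1162) and 1102 (932 to 1293), a ratio of 1.03 (0.85 to 1.23). In the PBS library that is above the monocyte-like and neutrophil-like cells, and its interval overlaps that of the 18 macrophage-like cells. In the CFA library the wide interval of the lining-like cells held those of the osteoclast-like and monocyte-like cells, and macrophage-like cells stood above all of them.

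Among other cells of the tissue, satellite cell-like cells had 57.9 and 103, a ratio of 1.77 (1.08 to 3.02) from 22 and 65 UMIs, and Schwann-like cells 55.6 and 82.6, a ratio of 1.49 (1.13 to 1.96). Tenocyte-like cells had 206 and 276, a ratio of 1.34 (1.17 to 1.55). Chondrocyte-like cells had 269 and 287, a ratio of 1.07 (0.94 to 1.21), and mural-like cells 167 in both libraries. Endothelial-like cells had less in the CFA library, 76.7 against 55.7, a ratio of 0.73 (0.63 to 0.83). Erythrocyte-like cells had 64.4 and 448, but the cells differed in depth, with medians of 17920 and 2322.5 UMIs, and macrophage markers in them came to 7.42 and 303 CPM.

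**Figure D3:**
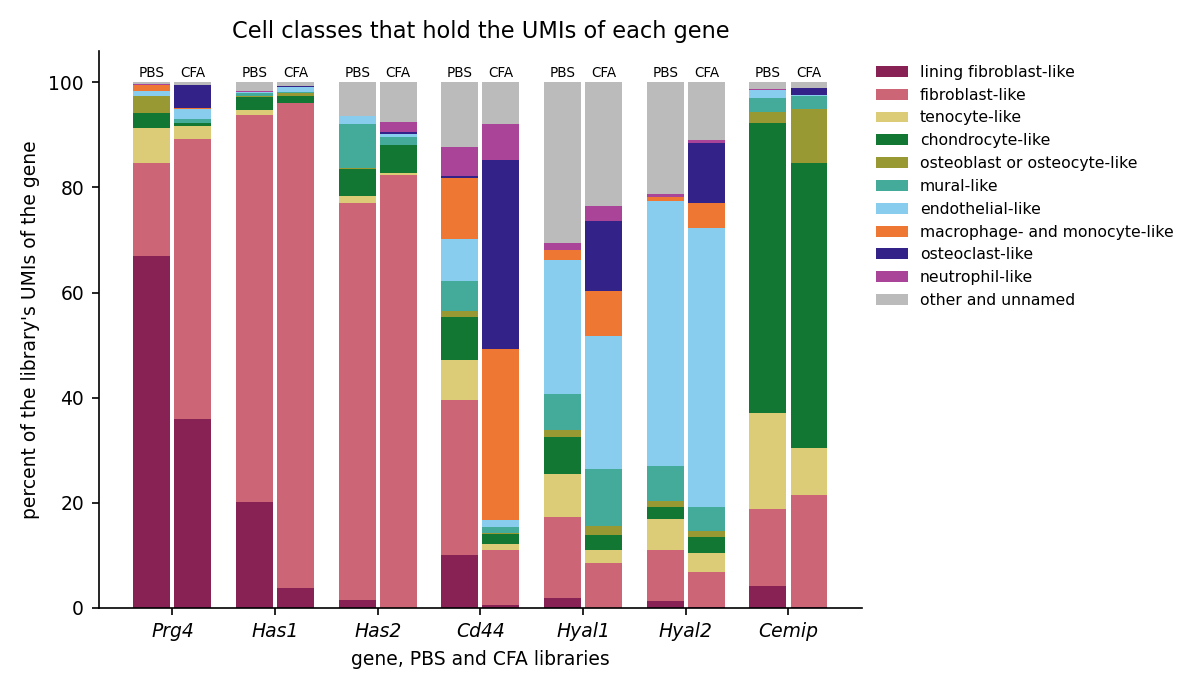
Percent of each library's UMIs of a gene that each class holds, as stacked bars for PBS and CFA. Lining fibroblast-like cells hold 66.9% of PBS and 35.8% of CFA Prg4, and osteoclast-like, macrophage-like and monocyte-like cells hold most of the CFA Cd44.

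Hyal1 (chromosome 9, 107576927 to 107581710, plus strand, GRCm38) was at the edge of detection in every class. It had 157 UMIs in PBS and 174 in CFA, 5.77 CPM (4.90 to 6.75) and 3.92 (3.36 to 4.54), a ratio of 0.68 (0.54 to 0.85). Its locus shares bases on the same strand with Naa80 and Hyal3, so the count can miss reads or hold reads of these neighbours. Endothelial-like cells held 24.8% and 24.1% of its UMIs, at 6.68 and 6.12. In fibroblast-like cells the level was 4.52 (2.90 to 6.72) and 2.73 (1.53 to 4.5), intervals that overlap.

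Hyal2 (chromosome 9, 107567945 to 107572779, plus strand, GRCm38) was mainly found in endothelial-like cells. These cells held 46.3% of its 521 PBS and 52.6% of its 567 CFA UMIs, at 41.3 CPM (36.2 to 46.8) and 43.4 (38.6 to 48.6), a ratio of 1.05 (0.88 to 1.25). Among the endothelial-like clusters, cluster 6, led by Nebl, Sema3g, Stmn2 and Gja5, had 63.6 and 61.5, and cluster 8, led by Plvap, Selp and Vwf, had 48.6 and 52.4. Cluster 0, led by Ccdc85a and Car4, had 19.2 and 18.6. Clusters 1 and 2 lay between clusters 8 and 0 and changed places, with 40.8 and 29.9 in cluster 1 and 25.7 and 35.0 in cluster 2. Fibroblast-like cells had 9.41 (6.99 to 12.4) and 6.91 (4.89 to 9.49), tenocyte-like cells 14.9 and 14.8, mural-like cells 17.5 and 11.6, and chondrocyte-like cells 6.84 and 8.93. Erythrocyte-like cells had 24.3 and 9.94, from 72 and 9 UMIs. Over all cells the ratio was 0.67 (0.59 to 0.75), and in endothelial-like cells 1.05. Myeloid cells, with 1725234 UMIs in PBS and 18644005 in CFA, held 7 and 95 of the Hyal2 UMIs. Their part in the ratio over all cells was not tested.

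Cemip (chromosome 7, 83932857 to 84086502, minus strand, GRCm38) was mainly a chondrocyte gene in these libraries. Chondrocyte-like cells held 55.2% of its 652 PBS and 54.2% of its 860 CFA UMIs. Their level was 205 CPM (185 to 228) in PBS and 245 (223 to 268) in CFA, a ratio of 1.19 (1.04 to 1.37), and 63.2% and 65.9% of the cells had a UMI. Without the highest barcode of each library the levels were 179 and 200. Tenocyte-like cells came second among classes with at least 50 cells in each library, at 57.1 (47.3 to 68.4) and 57.0 (45 to 71.3), a ratio of 1 (0.74 to 1.34). Osteoblast or osteocyte-like cells had 24.8 in 35 PBS cells and 159 in 28 CFA cells, from 13 and 88 UMIs, of which 1 CFA barcode held 29.

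Fibroblast-like cells had 96 Cemip UMIs in PBS (18.1 CPM) and 183 in CFA (33.3), a ratio of 1.84 (1.43 to 2.38) that turned to 0.81 (0.69 to 0.96) with at least 1000 genes a cell and was 6.90 with no hemoglobin limit. The value rested on few cells: 1 PBS barcode, in cluster 3, held 74 of the 96 UMIs and 1 CFA barcode, in cluster 7, 83 of the 183, and without them the levels were 4.17 and 18.3. By cluster the levels were 44.5 and 13.6 in cluster 3, 0.54 and 37.2 in cluster 7, and 6.40 and 50.9 in cluster 16. Without the highest barcode of each library they were 5.85 and 4.20 in cluster 3, 0 and 10.3 in cluster 7, and 5.17 and 26.9 in cluster 16. In cluster 16, 8 of 120 PBS and 9 of 57 CFA cells had a UMI, which is a share of 6.67% and 15.8%. B cell-like, macrophage-like and monocyte-like cells had no Cemip UMI in either library.

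The Cemip start site is shown as the counterpart for the gene that marked chondrocyte-like cells. The stretch lies at chr7:84086456-84086755 on the minus strand of GRCm38.p6 and is from the same RefSeq table. The capitals mark the letters TATAAA, a common promoter element that often sets the start site, 29 bases before the start. These letters stood in 4473 of 32851 promoters (13.6%) on either strand and in 1 of the 5 genes in the table. A match of letters is a description and not a shown site.
Cemip: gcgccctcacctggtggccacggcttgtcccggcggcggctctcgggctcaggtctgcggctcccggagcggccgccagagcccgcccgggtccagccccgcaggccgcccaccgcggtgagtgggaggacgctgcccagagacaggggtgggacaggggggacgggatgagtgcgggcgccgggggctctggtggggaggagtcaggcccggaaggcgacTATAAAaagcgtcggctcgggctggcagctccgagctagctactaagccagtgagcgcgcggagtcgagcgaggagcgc

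**Figure D4:**
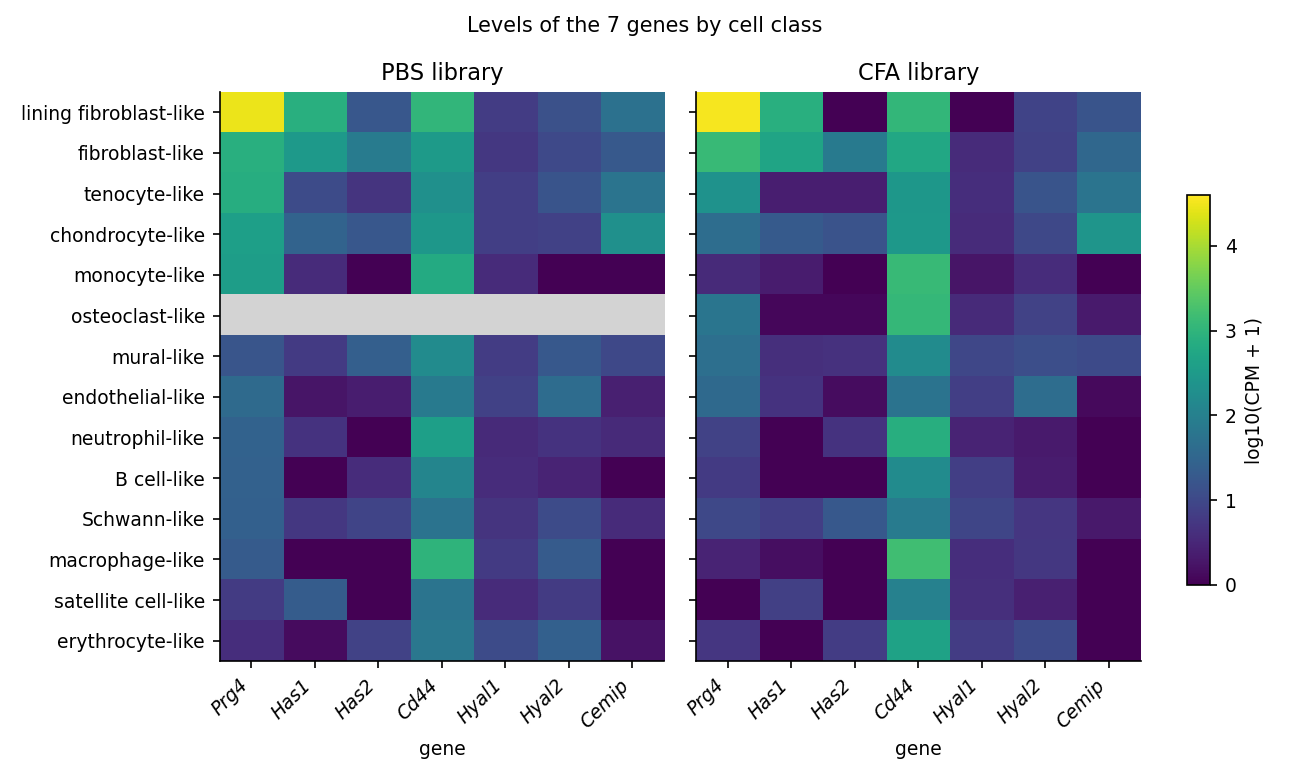
Level of each of the 7 genes in the lining-like cells and the larger classes, by library, coloured by log10 of CPM plus 1, with grey for groups under 5 cells. Prg4 and Has1 peak in lining fibroblast-like cells, Cd44 in myeloid and lining-like cells, Hyal2 in endothelial-like and Cemip in chondrocyte-like cells.

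How many of the 7 passed a CFA to PBS ratio of 2-fold in either direction was read against all genes. Over all cells 2 of the 7 did, Cd44 above and Prg4 below, and 19.9% of 18099 genes with at least 20 UMIs over both libraries did. In fibroblast-like cells none of the 7 passed 2-fold, and 13% of 13047 genes did. At a limit of 1.5-fold 5 of the 7 passed: Prg4, Has1, Cd44 and Cemip above, and Hyal1, at 0.60 from 24 and 15 UMIs, below, and 26.7% of all genes tested did. By fibroblast cluster the counts were 2 of 7 in cluster 3 (Has1 above, Cemip below through 1 barcode) against 14.9% of genes, 1 of 6 in cluster 7 (Cemip above) against 13.6%, and 3 of 6 in cluster 16 (Prg4 and Cemip above, Has2 below) against 11.2%.

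Outside the fibroblasts, 2 of 5 tested genes passed 2-fold in tenocyte-like cells (Prg4 and Has1 below) against 10.4% of all genes. Chondrocyte-like cells had 1 of 6 (Prg4 below) against 12.2%, endothelial-like cells 1 of 5 (Has1 above, from 5 and 25 UMIs of which 18 came from 1 barcode) against 11%, mural-like cells 2 of 6 (Prg4 above through 1 barcode and lower in CFA without it, Has2 below) against 8.57%, and neutrophil-like cells 1 of 2 (Prg4 below, 21 and 19 UMIs) against 20.1%. Schwann-like cells had 4 of 5, Has2 (12 and 32 UMIs) and Hyal1 (6 and 15) above and Prg4 (38 and 16) and Hyal2 (16 and 8) below, against 11%. Erythrocyte-like cells had 2 of 4 (Cd44 above, Hyal2 below) against 26.2%, B cell-like cells 1 of 2 (Prg4 below, 27 and 4 UMIs) against 8.64%, and satellite cell-like cells 0 of 1 against 16%. Several of these rest on single barcodes, as given above, or on few UMIs.

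**Figure D5:**
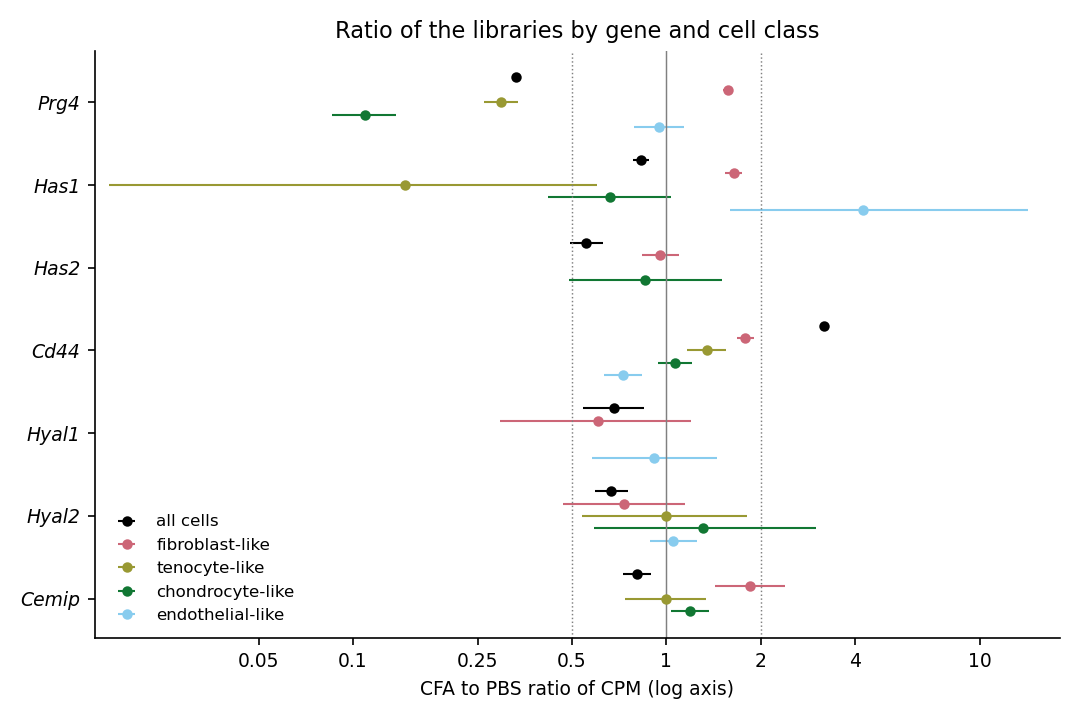
CFA to PBS ratio of CPM on a log axis for the genes with at least 20 UMIs in a class, with 95% conditional binomial intervals and dotted lines at 0.5 and 2. In fibroblast-like cells all points lie between the lines, and over all cells Cd44 lies above 2 and Prg4 below 0.5.

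The other genes of hyaluronan and lubricin biology were read from 4 lists with 42 genes, of which 31 had at least 20 UMIs in fibroblast-like cells. Their median ratio was 1.11, against 0.99 over all genes tested in these cells, with 3 above and 3 below 2-fold, where 13% of all genes tested in these cells passed in either direction. Among the 9 tested genes of hyaluronan synthesis and sugar supply, 1 was past 2-fold (again against 13%), Uap1, which makes the UDP-sugar that hyaluronan needs, at 345 CPM in PBS and 698 in CFA, a ratio of 2.02 (1.91 to 2.14). Ugdh, which makes the other UDP-sugar, had 531 and 821 (1.55, 1.48 to 1.62), and Gfpt2, which feeds the hexosamine route, 508 and 716 (1.41, 1.34 to 1.48). The median over this list was 1.41.

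Hyaluronan breakdown genes gave a median of 1.03 over 4 tested genes, none past 2-fold. Hexa, a lysosomal hexosaminidase subunit, stood at 135 CPM in PBS and 150 in CFA, and Cemip2 at 26.9 and 28.7. Of 9 tested binding proteins 1 was above 2-fold (Hmmr, from 11 and 29 UMIs in 3 cells each) and 2 below (Itih2, and Hapln1, where 1 barcode held 21 of 37 PBS UMIs), with a median of 1.04, against the same 13%. In that list Tnfaip6, the TSG-6 protein that links heavy chains to hyaluronan, had 1497 and 2226 (1.49, 1.44 to 1.53), and the matrix proteoglycan Vcan 318 and 441 (1.38, 1.30 to 1.47). Itih5, a heavy chain, went the other way, with 457 and 310 (0.68, 0.64 to 0.72). Tnfaip6 was also among the leading genes of fibroblast cluster 7.

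Of 9 tested partners and cleaving proteases of lubricin, 1 was above 2-fold and 1 below, against 13% of all genes, with a median of 1.27. The gene above was the lysosomal protease Ctss, with 2 UMIs in PBS and 206 in 96 CFA cells, and the gene below was Vtn (vitronectin), at 37.7 and 16.2 CPM. Fn1, the fibronectin to which lubricin binds, had 3285 and 5129 (1.56, 1.53 to 1.59), Ctsb 448 and 568 (1.27, 1.20 to 1.34), and Comp, a cartilage matrix protein, 299 and 393 (1.32, 1.23 to 1.41). Ctss is a gene of myeloid cells as well, and macrophage markers in fibroblast-like cells were 4.14 and 46.9 CPM. Their part in its value was not tested.

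The genes with patterns most like those of the 7 were found over 23 class-by-library sums, as Pearson correlations of log2(CPM + 10). These sums share libraries and differ in depth, and the values are a description. Classes entered with at least 50 cells in a library, so the lining-like cells, which held most of the PBS Prg4, are not among the sums. For Prg4 the nearest were Smoc2 (0.93), Dlx6 (0.91), Mfap2, Fgf18 and Pdgfra (0.90 each). For Has1 they were Inmt (0.94), 4930404H11Rik (0.93) and Nova1 (0.93), and Has2 followed Has1 with 0.85. For Has2 they were Irs3 (0.90), Nova1 (0.89) and Efemp1 (0.89), and for Cemip Rbp4 (0.97), Loxl3 (0.96) and Sema3d (0.96). For Cd44 the nearest were Tlr2 (0.92), Ctsh (0.90) and Ptgs2 (0.90), and for Hyal2 Rhpn2 (0.89), Zbtb46 (0.88) and Efnb2 (0.88). Hyal1 lay near or below the 10 CPM added in the sums, which limits what its likeness can show, and its nearest genes reached 0.81 (Lpcat3), 0.78 (2610035D17Rik) and 0.77 (Cers4). Prg4 and Cd44 had a correlation of 0.12 with each other.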

How the data were processed

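The values analysed are UMI counts of 2 single-cell libraries, deposited by the authors as raw counts without normalization. By the methods and the submitters' processing notes they were made with Cell Ranger 7.0.1 on GRCm38, and the annotation release is not given in the sources used here. The labels and the methods name different 10x kits and enzymes, so the chemistry is uncertain. Of 7671 PBS and 5709 CFA barcodes (51146169 and 53517206 UMIs), those with at least 500 genes, at most 10% mitochondrial and at most 1% hemoglobin UMIs were kept. That left 2667 and 4014 cells.

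Seurat 5.3.0 (R 4.3.3, sctransform 0.4.2) normalized each library, integrated both on 3000 genes without the 7 described, and grouped cells with 200 principal components (resolution 1.5). Clusters were named where at least 3 listed markers had a UMI in at least 25% of the cells and a level 2-fold or more above the remaining cells. Of the 6 clusters left unnamed, 5 failed this and 1 had few UMIs with none of its class's markers among its 10 leading genes. Scrublet (scanpy 1.11.5) marked 21 PBS and 2 CFA cells as doublets, too few to rely on, and cells were kept. Python 3.11.15 with numpy 2.4.6, scipy 1.17.1, pandas 2.3.3 and matplotlib 3.10.9 gave the other values.

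Counts were summed per class and library and divided by the class's UMIs. Intervals are exact at 95% (Poisson for levels, Clopper-Pearson for shares, conditional binomial for ratios) and cover counting error only. The upper limit for 0 cells rests on 3 counts. Shares of cells were taken after thinning to 1000 UMIs, which left out 55 PBS and 129 CFA cells. With 1 library a group no test was made. Genes with at least 20 UMIs over both libraries entered the count past 2-fold. The scripts were tested on simulated data.

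Members and gene lists were chosen with earlier results of these data known. All 7 genes were measured in every class with at least 50 cells in a library, and the text leaves out most values from few UMIs. It names the 3 most abundant genes of each list, the genes past 2-fold in a list, and the 5 (Prg4) or 3 genes of the most similar pattern with at least 100 UMIs. Smaller classes, and the lists' genes past 2-fold, were added after their values were seen. A gene that this rule names in the list of hyaluronan breakdown is not reported here. The lining markers had been listed for sub-clusters of the fibroblast-like cells. Their use on whole clusters, the lining-like cells counted in or left out, and the omission of barcodes with 50 or more Prg4 UMIs were chosen after seeing the data. Alternatives were no hemoglobin limit, a mitochondrial limit of 20%, 1000 genes, doublets removed, another resolution, number of components, normalization, gene set or cell naming, another scaling, a mean over cells, other thinning and a 1.5-fold limit.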

Additional observations from a re-analysis of the deposited data

How the results depend on the processing

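Ratios are CFA to PBS. Over all cells, Prg4 (0.33) was 0.41 with no hemoglobin limit, 0.38 scaled by the median ratio, 0.31 with the top 5% of doublet scores removed, 0.63 without the lining-like cells and 0.36 without barcodes of 50 or more Prg4 UMIs outside fibroblasts. Has1 (0.83) reversed to 1.01 with no hemoglobin limit and was 0.95 by the median ratio and 0.98 without lining-like cells. Has2 (0.56) was 0.69 with no hemoglobin limit and 0.64 by the median ratio. Cd44 (3.20) was 3.59, 3.68 and 3.48 with no hemoglobin limit, by the median ratio and without lining-like cells, and 2.80 as a mean over cells, where Hyal1 (0.68) reversed to 1.01.

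In fibroblast-like cells, Prg4 (1.57) reversed to 0.61 with at least 1000 genes, 0.60 at resolution 0.8 and 0.59 with lining-like cells counted in. The first 2 left no separate lining-like cluster, so these 3 settings count lining-like cells as fibroblast-like by construction. It was 1.23 with each cell classed on its own, 1.43 with the 7 genes kept for clustering, 1.35 with 50 components, 1.51 with doublets removed and 1.64 log-normalized without integration. Has1 (1.64) was 1.44 at resolution 0.8, 1.45 with each cell classed alone, 1.78 as a mean over cells, 1.44 with lining-like cells and 1.79 with 50 components. Cd44 (1.79) was 1.58 with 1000 genes, 1.5 at resolution 0.8, 1.52 classed alone, 1.64 as a mean over cells and 1.5 with lining-like cells. Cemip (1.84) ranged from 0.81 with 1000 genes to 6.90 with no hemoglobin limit, reversed also to 0.90 with the 7 genes kept, and was 1.15 with 50 components and 1.11 classed alone, both with intervals that include 1. Has2 stayed between 0.96 and 1.10 over 12 alternatives.

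In lining fibroblast-like cells, Prg4 (1.15) reversed to 0.80 with no hemoglobin limit, 0.90 with doublets removed and 0.95 with 50 components, and was 1.04 classed alone, 1.22 by the median ratio and 1.10 at a 20% mitochondrial limit. The cause was not tested. With 1000 genes or resolution 0.8 there was no such cluster and no value. The percent of Prg4 UMIs in lining-like cells (PBS 66.9%, CFA 35.8%) was 29.65% and 11.1% classed alone and 70.3% and 21.5% log-normalized. It was 58.2% and 37.8% with no hemoglobin limit and 58.3% and 36.5% with 50 components. The number past 2-fold among the 7 in fibroblast-like cells (0) was 1 with no hemoglobin limit, 1000 genes, doublets removed or 50 components, where 11.8%, 12.2%, 12.8% and 11.5% of all genes passed, and 5 at a 1.5-fold limit, which 26.7% of all genes passed.

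The percent of Prg4 UMIs in fibroblast-like cells (PBS 17.8%, CFA 53.4%) was 93% and 90.1% with 1000 genes, 84.7% and 89.3% at resolution 0.8, 84.7% and 89.3% with lining-like cells, 16.2% and 51.1% with no hemoglobin limit, 18.6% and 55% with doublets removed, and 22.3% and 68% log-normalized. For PBS it was 21% classed alone, 20.7% with the 7 genes kept and 24.1% with 50 components. The share of fibroblast-like cells with a Prg4 UMI (PBS 20.1%, CFA 33.3%) was 26.4% and 40.2% at 2000 UMIs and 44.5% and 59.3% without thinning. Scaling by the median ratio set the middle gene over all cells, at 0.87, to 1. Classes under 50 cells and genes under 20 UMIs are limited by depth. No paired analysis was possible because each group has 1 library and no test was made.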

Other observations

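Prg4 was found at a low but uneven level in endothelial-like cells, which had 38.5 CPM (33.7 to 43.9) in PBS and 36.4 (32.1 to 41.2) in CFA. Endothelial-like clusters 0, 1 and 2, led by capillary genes such as Car4, Gpihbp1 and Ccdc85a, had 53.4, 62.5 and 49.6 in PBS and 47.6, 67.3 and 55.7 in CFA. Clusters 6 and 8, led by Gja5 and Sema3g and by Selp and Vwf, had 7.6 and 18.6 in PBS and 21.4 and 19.2 in CFA. In cluster 6, 1 CFA barcode held 20 of 25 UMIs, and without the highest barcode of each library the levels were 4.79 and 4.37. After thinning, 3.51% (2.31% to 5.11%) of PBS and 4.21% (3.08% to 5.61%) of CFA endothelial-like cells had a Prg4 UMI. The CFA share lies above that of the B cell-like cells, 0 of 144 (up to 2.08%), and the PBS share is within the interval of theirs, 5 of 200 (0.817% to 5.74%). The endothelial-like cells had medians of 5405 and 4375 UMIs, and what part free RNA had in these values was not tested.

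Schwann-like cluster 13, with Kcna1 and Pou3f1 among its leading genes, had 2 Has2 UMIs in 100 PBS cells and 17 in 126 CFA cells, 3.3 and 27.0 CPM. Of the 17, 3 barcodes held 11. Schwann-like cluster 25 had 1 and 14 Has2 UMIs, 10 of the 14 in 1 barcode. Schwann-like cluster 4 went the other way, with 9 in 161 PBS cells and 0 in 197 CFA cells. Cluster 20 of the mural-like cells, where Has2 was lower in CFA, had 12.0 Cemip CPM in PBS and 34.5 in CFA, from 10 and 22 UMIs, of which 1 CFA barcode held 18, and without the highest barcode of each library the levels were 7.36 and 6.51. Lymphatic-like cells had 21 Hyal2 UMIs in 18 PBS cells, 79.5 CPM (49.2 to 122), and 3 in 12 CFA cells, 17.5 (3.6 to 51.1).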
